A study of Mus musculus with 5 samples.

Results

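The regions described are 10 imprinted loci of the mouse, Peg3, Snrpn, Mest, Peg10, Kcnq1ot1, Igf2r, Grb10, Gnas, H19 and Meg3, read under 2 histone marks in embryonic stem cells (ESCs) of the line TBV2. Each locus was defined by a fixed span on mouse build mm9, and every island (an enriched region) of the 4 deposited lists that touched a span by 1 bp or more was a member. The spans had lengths of 30 to 130 kb and added up to 750 kb. They drew in 63 of the 73415 islands deposited: 15 of 18464 H3K9me3 islands in ESCs, 14 of 25867 in L-proline-induced cells (PiCs), 16 of 12280 H3K36me3 islands in ESCs and 18 of 16804 in PiCs.

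Both groups were wild-type TBV2 cells, of strain 129/SvP, seeded thinly on gelatin without feeder cells and kept for 5 days in a LIF-containing medium that lacked non-essential amino acids. The ESC group received no L-proline and the PiC group received 500 µM L-proline. Each mark was mapped in each group by chromatin immunoprecipitation and sequencing (ChIP-seq), with 1 library per mark and group. The differences described below therefore had no replicate check, and no p-value was computed. One line was used, and the reads were not assigned to parental copies, so a mark on the maternal copy and one on the paternal copy cannot be told apart.

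At an imprinted gene the copy inherited from one parent is expressed and the other is silent. The choice is set by a control region that is DNA-methylated in only one germline, and the methylated copy is known to carry H3K9me3, a mark of silent chromatin, placed there with the help of the zinc finger protein ZFP57 and its partner TRIM28. H3K36me3 is laid down in the bodies of genes as they are transcribed. In mouse, 8 of these loci (Peg3, Snrpn, Mest, Peg10, Kcnq1ot1, Igf2r, Grb10 and Gnas) have control regions methylated on the maternal copy, and 2 (H19 and Meg3) on the paternal copy.

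ZFP57 recognises the letters TGCCGC when their CpG is methylated. The 250 bases before each RefSeq transcription start of the genes that name the loci were therefore searched. TGCCGC was sought on both strands (GCGGCA on the strand as printed). Of the 10 loci, 8 were matched by symbol (all but H19 and Peg10), with 18 promoters. The match was by symbol and not by position. On build GRCm38.p6 the promoters of Snrpn run from 60005200 to 60450427 on chromosome 7, further than the 70 kb of its span. Not all 18 promoters therefore lie in the spans. The letters were present in 3 of these 18 promoters (16.7%), against 8.68% of all 32851 promoters of the same length. Those 3 belonged to 2 loci, Mest and Meg3. They are shown because they hold the matches, with the matches in capitals. RefSeq gives them on build GRCm38.p6, at chr6:30737800-30738049 and chr12:109540746-109540995, both on the plus strand, and these positions cannot be set against the mm9 positions of the islands. The third promoter, also of Mest, starts 3 bases further on and is not shown.
Mest: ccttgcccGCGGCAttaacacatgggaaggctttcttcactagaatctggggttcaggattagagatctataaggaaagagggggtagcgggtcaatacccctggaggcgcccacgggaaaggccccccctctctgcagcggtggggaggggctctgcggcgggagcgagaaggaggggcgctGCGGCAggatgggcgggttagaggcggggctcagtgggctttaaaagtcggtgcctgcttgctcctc
Meg3: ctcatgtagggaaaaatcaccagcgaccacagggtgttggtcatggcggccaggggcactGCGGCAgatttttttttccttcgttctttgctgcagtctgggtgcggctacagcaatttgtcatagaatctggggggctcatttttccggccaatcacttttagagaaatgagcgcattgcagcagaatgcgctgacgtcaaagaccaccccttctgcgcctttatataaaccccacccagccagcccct
The Mest promoter held 2 matches and the Meg3 promoter 1. A match is a run of letters and not a measured binding site. The control regions were not located and need not lie in these bases. The search therefore says nothing of the letters in the control regions.

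The depth of the libraries is unknown, because the lists cover called islands alone. Each island comes with a whole number, taken here for the tags counted in it. Over whole lists it summed to 1511058 (H3K9me3, ESCs), 3514489 (H3K9me3, PiCs), 26055650 (H3K36me3, ESCs) and 15787192 (H3K36me3, PiCs). Tags per kb, the tag count over the island's length, was not scaled to depth. Its list medians were 25.5 in ESCs and 33.0 in PiCs for H3K9me3, and 71.3 and 48.9 for H3K36me3. Values for the input library were not analysed here. Intervals are exact 95% intervals and cover counting error only, not variation between libraries. PCR copies are not independent molecules, so the intervals can be too narrow even for counting error.

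All 10 loci carried H3K9me3 in both groups. As a background, the genome was cut into 37727 tiles of 70 kb, the median span, and 31.9% of the tiles met an H3K9me3 island in ESCs and 40.2% in PiCs, with 27.1% doing so in both. H3K36me3 was present at 8 loci in ESCs, the exceptions being H19 and Peg10, and at 9 in PiCs, where H19 alone lacked it. The share of tiles meeting H3K36me3 was 23.0% in ESCs, 24.7% in PiCs and 21.6% for both groups together, the case at 8 loci. The spans hold genes by design and differ in length, whereas the tiles were laid without regard to genes. Tile shares, here and below, are therefore set beside the loci as a description. H3K9me3 islands covered 97.2 kb of the 750 kb in ESCs (13.0%) and 95 kb in PiCs (12.7%). H3K36me3 islands covered 289.8 kb (38.6%) and 264.4 kb (35.3%). Over the whole lists, H3K9me3 islands covered 55.3 Mb in ESCs and 96.4 Mb in PiCs, and H3K36me3 islands 232.3 and 229.2 Mb. H3K9me3 length was thus greater in PiCs over the whole lists but not at the loci.

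Bases under both marks were found at 6 loci in ESCs and at 3 in PiCs. Both marks were present at 8 loci in ESCs and at 9 in PiCs, and at 7.51% and 7.95% of tiles. Tiles with bases under both made up 3.11% of all tiles in ESCs and 3.57% in PiCs. Among tiles that met both marks the shares were 41.3% and 44.9%, whereas 6 of the 8 loci with both marks had an overlap in ESCs and 3 of the 9 in PiCs. Mest, Gnas and Igf2r overlapped in both groups, and Snrpn, Kcnq1ot1 and Meg3 in ESCs alone. Of all tiles with an overlap in ESCs, 44.6% had one in PiCs. The bases under both marks came to 12.8 kb in ESCs and 21.2 kb in PiCs, so fewer loci held more of them. Gnas and Igf2r supplied 5.2 and 3.6 kb of this length in ESCs and 10.6 and 10 kb in PiCs.

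**Figure D1:**
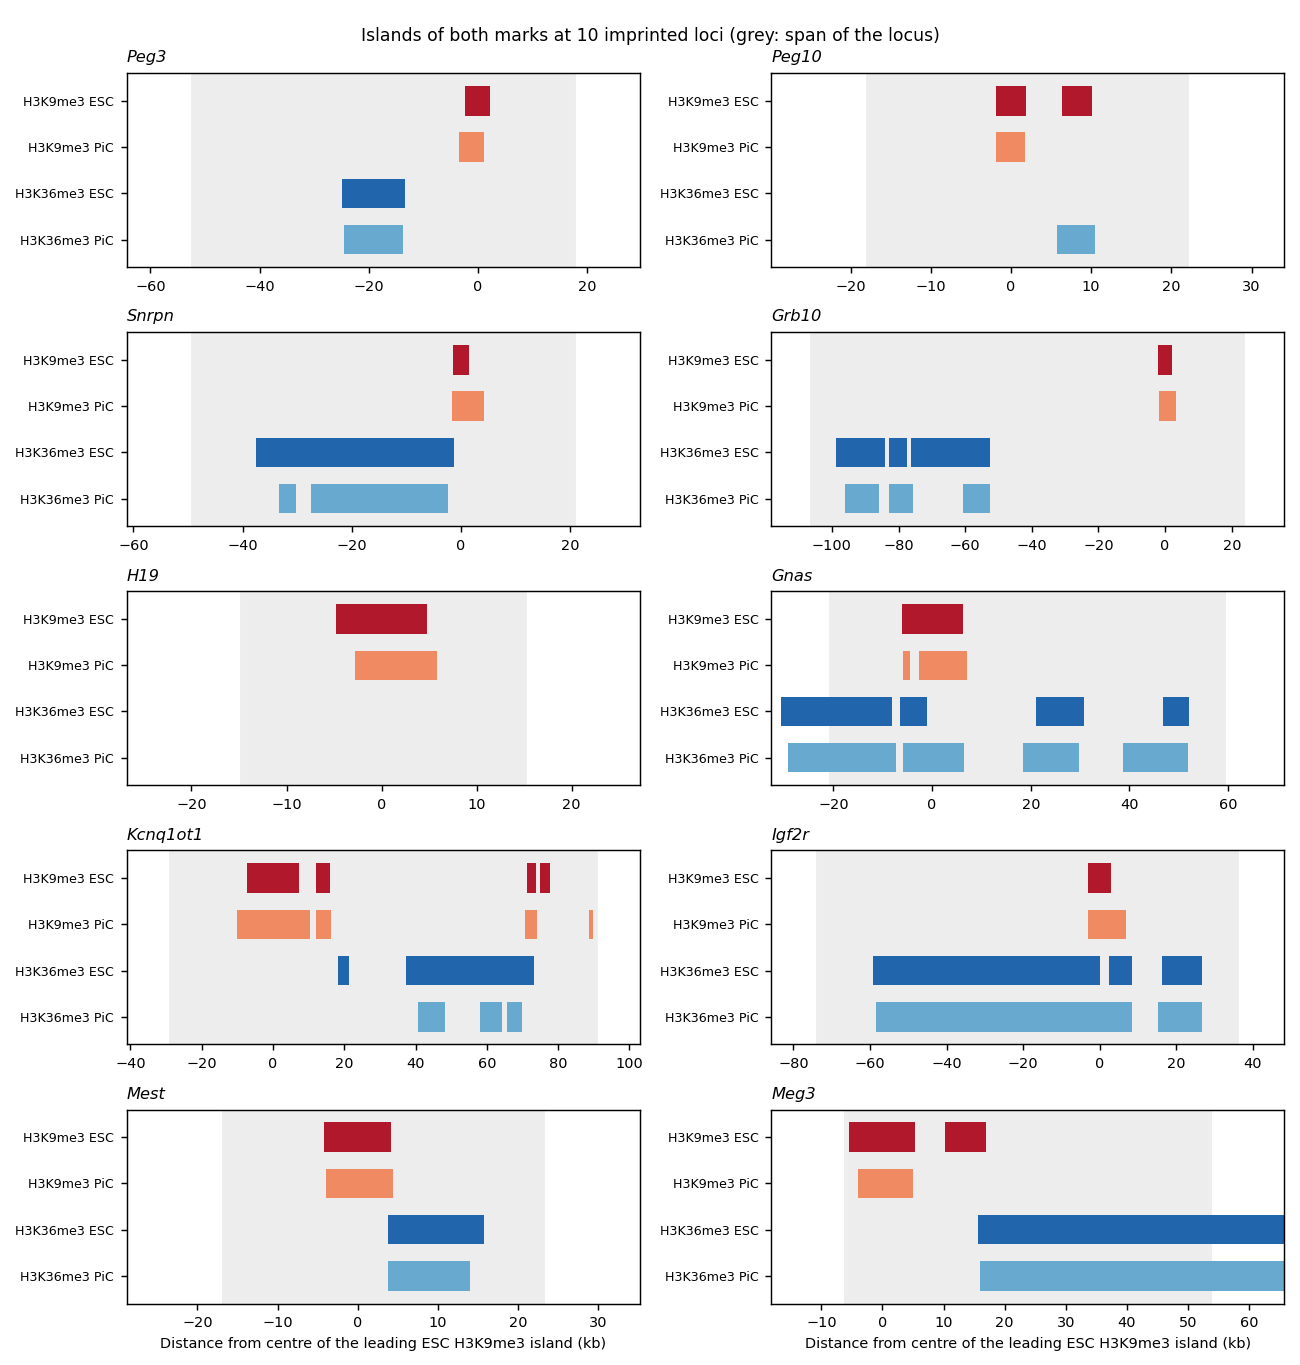
Islands of H3K9me3 (reds) and H3K36me3 (blues) at the 10 loci, with dark colours for ESCs and light colours for PiCs. The horizontal axis is the distance in kb from the centre of the ESC H3K9me3 island with the most tags at the locus, each row is 1 library, and grey marks the span (the H3K36me3 islands of Meg3 run past the right edge). H3K9me3 is present at every locus in both groups, and H19 has no H3K36me3. The H3K9me3 block sits at the lower-position edge of the H3K36me3 block at Mest and at its higher-position edge at Snrpn.

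Peg3 encodes a zinc finger protein expressed from the paternal copy. Its span, chromosome 7 at 6630001 to 6700000, held 1 island per list. The ESC H3K9me3 island lay at 6680001 to 6684600 and held 311 tags over 4.6 kb, or 67.6 tags per kb. This density was at the 98.1 percentile of the ESC list and was the highest among the H3K9me3 islands of the loci. In PiCs the island at 6678801 to 6683400 had the same width and 154 tags, or 33.5 per kb, close to its list median. Both of its edges lay at lower positions than in ESCs. H3K36me3 lay 11 kb away in ESCs, at 6657401 to 6669000 (583 tags, 50.3 per kb), and 10.2 kb away in PiCs, at 6657801 to 6668600 (500 tags, 46.3 per kb). The marks did not overlap at Peg3 in either group.

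Snrpn encodes a protein of the small nuclear ribonucleoproteins that act in splicing, and is also expressed from the paternal copy. Within the span, chromosome 7 at 67100001 to 67170000, ESCs had 135 H3K9me3 tags in a 2.8 kb island at 67147801 to 67150600 (48.2 per kb). The PiC island, at 67147601 to 67153400, was 5.8 kb wide and held 150 tags (25.9 per kb). One ESC island of H3K36me3 ran from 67111601 to 67148000 (36.4 kb, 3882 tags, 106.6 per kb) and entered the H3K9me3 island by 0.2 kb, a single window of the caller's grid. In PiCs H3K36me3 was in 2 islands, the larger at 67121801 to 67146800 (25 kb, 1328 tags, 53.1 per kb). It stopped 0.8 kb short of the H3K9me3 island. Snrpn thus showed the marks edge to edge in both groups, and its overlap in ESCs alone rests on the 0.2 kb and the 0.8 kb just given.

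Mest encodes a protein with a hydrolase fold and is expressed from the paternal copy. Here the H3K9me3 islands of the groups almost coincided inside the span on chromosome 6 at 30670001 to 30710000. In ESCs the island ran from 30682601 to 30691000 with 385 tags (45.8 per kb), and in PiCs from 30682801 to 30691200 with 183 tags (21.8 per kb). Both were 8.4 kb wide. The PiC density was at the 5.91 percentile of its list and the ESC density at the 90.8 percentile. H3K36me3 began at 30690601 in both groups, within the last part of the H3K9me3 island, and ended at 30702600 in ESCs (12 kb, 1406 tags, 117.2 per kb) and at 30700800 in PiCs (10.2 kb, 540 tags, 52.9 per kb). The overlap measured 0.4 kb in the ESC lists and 0.6 kb in those of PiCs, the smallest of those found in PiCs.

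Peg10, a gene derived from a retrotransposon and needed in the placenta, lay in the span on chromosome 6 at 4680001 to 4720000. The leading H3K9me3 island started at 4696001 in both groups. It ended at 4699800 in ESCs (3.8 kb, 182 tags, 47.9 per kb) and at 4699600 in PiCs (3.6 kb, 82 tags, 22.8 per kb). A second, sparser ESC island at 4704201 to 4708000 held 68 tags, or 17.9 per kb, and had no counterpart in PiCs. PiCs had instead an H3K36me3 island at 4703601 to 4708400 (4.8 kb, 198 tags, 41.2 per kb), which enclosed the whole of that ESC island. No H3K36me3 island touched the span in ESCs, the nearest lying 161 kb from the second H3K9me3 island. Among all 3831 ESC H3K9me3 islands with no PiC counterpart, 26.3% overlapped a PiC H3K36me3 island, as did 2 of the 3 such islands at the loci, this one and that of Meg3.

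Kcnq1ot1 is a long non-coding RNA made from the paternal copy, antisense to Kcnq1, that silences neighbouring genes in cis. Its span, chromosome 7 at 150380001 to 150500000, had the greatest H3K9me3 length and the most H3K9me3 tags of the loci in both groups. As a share of the span H19 had more, with 32% against 19.8% in ESCs and 28.7% against 24% in PiCs. Meg3 (29.3%) and Mest (21%) also had more in ESCs. The leading island of Kcnq1ot1 measured 14.4 kb in ESCs (150401801 to 150416200, 738 tags, 51.2 per kb) and 20.4 kb in PiCs (150399001 to 150419400, 1318 tags, 64.6 per kb). Ranked by width these islands were number 35 and number 37 of their lists. Beside it lay an island at 150421201, 3.8 kb wide with 135 tags in ESCs and 4 kb wide with 219 tags in PiCs. These adjoining islands were the ones at the loci with more H3K9me3 tags per kb in PiCs.

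Another H3K9me3 island at Kcnq1ot1, further along the span, was the one that met H3K36me3. In ESCs it lay at 150480201 to 150482800 (157 tags, 60.4 per kb), and 2 kb of its 2.6 kb were covered by an H3K36me3 island at 150446201 to 150482200 (36 kb, 1313 tags, 36.5 per kb). In PiCs the H3K9me3 island was at 150479801 to 150483000 (143 tags, 44.7 per kb). H3K36me3 had 3 islands there, of which the one with the most tags lay at 150449601 to 150457400 (244 tags, 31.3 per kb), and the nearest ended 1 kb before the H3K9me3 island. H3K36me3 covered 39.2 kb of the span in ESCs and 18.2 kb in PiCs, the largest difference of the 10 loci. A smaller ESC H3K9me3 island at 150483801 (51 tags) and a PiC one at 150497601 (43 tags) had no counterpart, nor had an ESC H3K36me3 island at 150427201 (235 tags).

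Igf2r encodes the receptor that clears the growth factor IGF2 and is expressed from the maternal copy, while the antisense RNA Airn starts inside it on the paternal copy. In the span, chromosome 17 at 12860001 to 12970000, the ESC H3K9me3 island lay at 12930801 to 12936800 (6 kb, 259 tags, 43.2 per kb). It bridged the gap between H3K36me3 islands at 12874601 to 12933800 (59.2 kb, 7235 tags, 122.2 per kb) and at 12936201 to 12942200 (376 tags), with 60% of its length under them. In PiCs H3K36me3 ran without a break from 12875401 to 12942200 (66.8 kb, 4404 tags, 65.9 per kb). The PiC H3K9me3 island, at 12930601 to 12940600 (10 kb, 291 tags, 29.1 per kb), lay wholly inside it. A further H3K36me3 island near 12950001 was present in both groups, with 414 and 434 tags.

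Grb10 encodes an adaptor protein that restrains insulin and growth factor receptors, and which copy is expressed depends on the tissue. Its span, chromosome 11 at 11820001 to 11950000, was the longest. H3K9me3 was confined in these lists to 1 island per group, at 11924001 to 11928400 in ESCs (4.4 kb wide with 170 tags, 38.6 per kb), while in PiCs it was at 11924401 to 11929400 (5 kb wide with 171 tags, 34.2 per kb). H3K36me3 began 50.4 kb from it in ESCs and 50.8 kb from it in PiCs. It formed 3 islands in each group and covered 43.6 kb in ESCs and 25.8 kb in PiCs. The one with the most tags was at 11850001 to 11873600 in ESCs (23.6 kb, 929 tags, 39.4 per kb), while in PiCs it was at 11830001 to 11840400 (10.4 kb, 455 tags, 43.8 per kb). The H3K9me3 tag counts of Grb10, not scaled to depth, were thus nearly equal in the groups.

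Gnas encodes the alpha subunit of the stimulatory G protein and gives further transcripts from several promoters, with paternal, maternal or biallelic expression. On chromosome 2, span 174100001 to 174180000, the ESC H3K9me3 island lay at 174114401 to 174126800 (12.4 kb, 555 tags, 44.8 per kb). In PiCs the same stretch held 2 islands, at 174114601 to 174116200 (80 tags, 50 per kb) and at 174118001 to 174127600 (9.6 kb, 394 tags, 41.0 per kb). H3K36me3 overlapped it through an island at 174114001 to 174119600 in ESCs (5.6 kb, 593 tags, 105.9 per kb), which in PiCs reached from 174114601 to 174127000 (12.4 kb, 756 tags, 61.0 per kb). The part of the H3K9me3 islands under H3K36me3 was 41.9% in ESCs, and in PiCs 100% of the smaller and 93.8% of the larger island. The H3K36me3 island with the most tags lay just before, at 174090001 to 174112400 in ESCs (2005 tags, 89.5 per kb) and 174091401 to 174113200 in PiCs (1434 tags, 65.8 per kb). Gnas was the locus where H3K36me3 length in PiCs most exceeded that in ESCs, with 33 kb of the span covered in ESCs and 50.2 kb in PiCs.

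H19, a long non-coding RNA of the maternal copy whose control region also governs Igf2, lay in the span on chromosome 7 at 149750001 to 149780000. ESCs had an H3K9me3 island at 149760001 to 149769600 (9.6 kb, 478 tags, 49.8 per kb) and PiCs one at 149762001 to 149770600 (8.6 kb, 301 tags, 35 per kb). The nearest H3K36me3 island was 27.6 kb away in ESCs and 29.2 kb away in PiCs. Within these spans H19 was therefore the locus marked by H3K9me3 alone in both groups. With every span widened by 20 kb on each side, these H3K36me3 islands reached into that of H19, and H3K36me3 was present at 9 loci in ESCs and at 10 in PiCs.

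Meg3, a long non-coding RNA of the maternal copy, lies beside Dlk1, with the control region between the genes. In the span on chromosome 12 at 110760001 to 110820000 the leading H3K9me3 island was at 110760801 to 110771600 in ESCs (10.8 kb, 411 tags, 38.1 per kb), while in PiCs it was at 110762201 to 110771200 (9 kb, 252 tags, 28 per kb). A second ESC island at 110776401 to 110783200 (6.8 kb, 150 tags, 22.1 per kb) had no PiC counterpart. Its last 1.4 kb lay under ESC H3K36me3, and this was the overlap of the marks at Meg3 in ESCs. H3K36me3 in ESCs ran as 1 island from 110781801 to 110941000, far past the span. At 159.2 kb and 17055 tags (107.1 per kb) it was the seventh widest island of its list. PiCs had 7 islands over this stretch, which covered 130.4 kb with 6112 tags. The one that reached into the span, at 110782201 to 110859000, was 76.8 kb wide with 4346 tags (56.6 per kb). It covered 14.7% of the ESC H3K9me3 island that had no PiC counterpart.

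**Figure D2:**
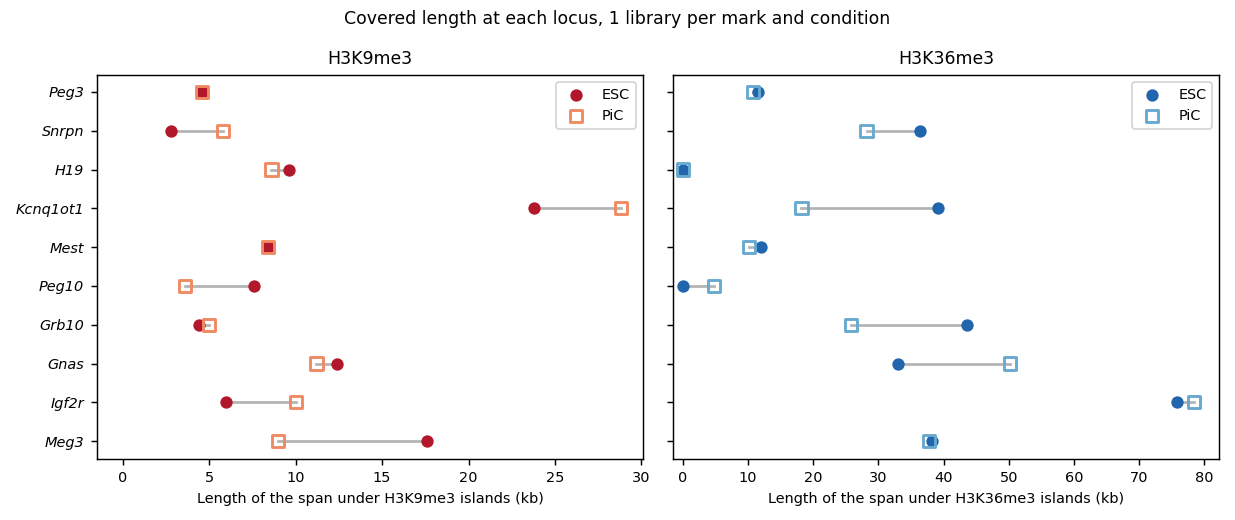
Length of each span, in kb, under H3K9me3 islands (left) and H3K36me3 islands (right). Filled circles are ESCs, open squares are PiCs and each point is 1 library. H3K9me3 lengths at Peg3 and Mest are equal in both groups, Meg3 and Peg10 have less H3K9me3 in PiCs, and Kcnq1ot1 and Grb10 have less and Gnas more H3K36me3 in PiCs.

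To compare the groups site by site, islands of ESCs and PiCs that overlapped were joined into sites. The loci held 16 H3K9me3 sites, of which 12 were present in both groups, 3 in ESCs alone and 1 in PiCs alone. Over the genome 47.0% of 29412 H3K9me3 sites were in both groups, 13.0% in ESCs alone and 40.0% in PiCs alone. Each locus had at least 1 site in both groups. The 3 sites of ESCs alone, the second islands of Peg10 and Meg3 and the small one at Kcnq1ot1, held 17 to 22.1 tags per kb, below the list median. Counted as islands, 12 of 15 in ESCs and 13 of 14 in PiCs overlapped H3K9me3 of the other group, against 79.3% and 54.5% of the lists. For H3K36me3 13 of 15 sites were in both groups, against 68.5% of 14868 sites over the genome. The islands overlapping H3K36me3 of the other group numbered 15 of 16 in ESCs and 17 of 18 in PiCs, against 89.7% and 79.7% of the lists.

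H3K9me3 sites at the loci held fewer tags per kb in PiCs than in ESCs at 10 of the 12 shared sites, whereas this was so for 20.6% of the 13821 shared sites of the genome. The median ratio of PiC to ESC tags per kb was 0.719 at the loci and 1.35 over all shared sites, so 11 of the 12 lay below the genome's median. As the tags were not scaled to depth, a ratio of 1 does not stand for equal enrichment, and the genome's median is the reference here. The lowest ratios were those of Mest (0.475, interval 0.396 to 0.568), Peg10 (0.476, 0.362 to 0.621), Peg3 (0.495, 0.406 to 0.603) and Snrpn (0.536, 0.422 to 0.682). Igf2r (0.674, 0.568 to 0.800), H19 (0.703, 0.606 to 0.814), Meg3 (0.736, 0.626 to 0.863) and the third Kcnq1ot1 site (0.740, 0.586 to 0.934) followed. Grb10 had a ratio of 0.885 (0.712 to 1.10) and Gnas of 0.946 (0.835 to 1.07). Both other Kcnq1ot1 sites had higher ratios, of 1.26 (1.15 to 1.38) and 1.54 (1.24 to 1.92). The intervals take the called widths as fixed. Of the 10 sites with fewer tags per kb in PiCs, 7 also had fewer tags. Snrpn, Igf2r and Grb10 did not, with tag ratios of 1.11, 1.12 and 1.01 and width ratios of 2.07, 1.67 and 1.14.

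These H3K9me3 sites were also dense in ESCs. ESC tags per kb is the denominator of the ratio, so a class of sites chosen for a high value has lower ratios by construction. All 12 shared sites were in the 25% of shared sites with the most ESC tags per kb (35 or more). In that class 52.6% of 3510 sites had fewer tags per kb in PiCs and the median ratio was 0.968. Within 100 kb of an ESC H3K36me3 island, where 11 of the 12 lay, 22.1% of 4296 shared sites did so, with a median of 1.32. Among sites with both properties the share was 50.7% of 1298 and the median 0.993. The part of ESC density in the lower ratio at the loci was not tested apart from these classes. Counting tags in place of tags per kb, 7 of the 12 sites had fewer in PiCs, against 6.79% of all shared sites, with median ratios of 0.882 and 1.85. In the class dense in ESCs 403 of 3510 sites had fewer tags, with a median of 1.65. Among sites with both properties 275 of 1298 did, with a median of 1.43. ESC tags are the denominator of this ratio too, and no class chosen by ESC tags was compared. In all, the islands at the loci held 4185 H3K9me3 tags in ESCs, 0.277% of the list's tags, and 3781 in PiCs, 0.108%. The PiC list was also the larger, with 25867 islands over 96.4 Mb against 18464 over 55.3 Mb in ESCs.

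**Figure D3:**
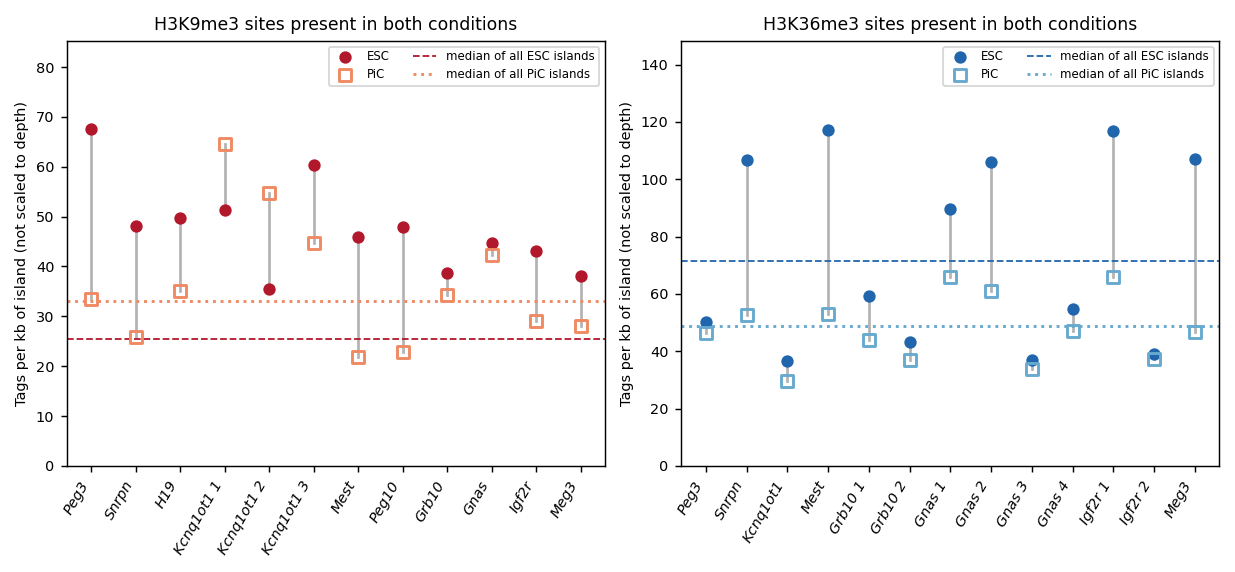
Tags per kb, not scaled to depth, at the sites of the loci present in both groups, for H3K9me3 (left) and H3K36me3 (right). Filled circles are ESCs, open squares PiCs, numbers tell apart sites of 1 locus in genome order, and dashed and dotted lines are the medians of all ESC and all PiC islands. All H3K9me3 circles lie above the ESC median of 25.5, while the squares lie on both sides of the PiC median of 33.0.

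Widths of the H3K9me3 sites were mostly close between the groups. Of the 12 shared sites 6 were wider in PiCs, 4 narrower and 2 equal, with a median width ratio of 1.03. Over all shared sites 72.9% were wider and 18.9% narrower, and the median ratio was 1.33. Snrpn (2.07) and Igf2r (1.67) had the largest width ratios and Meg3 (0.833) the smallest. The leading islands, those with the most tags at each locus, were broad: all 10 were wider than the list median in ESCs (2.6 kb) and in PiCs (3.2 kb). Their medians were 7.2 kb and 8.5 kb. In density all 10 were above the list median in ESCs, between the 82.6 and 98.1 percentiles, but 5 of 10 in PiCs, between the 5.91 and 96.6 percentiles. Choosing islands by their tags favours wide and dense ones. Among all islands at the loci, 14 of 15 in ESCs and 11 of 14 in PiCs were wider than the list median, and 12 of 15 and 9 of 14 were denser.

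For H3K36me3 the ratios at the loci were near those of the whole genome. All 13 shared sites had fewer tags per kb in PiCs, but so did 88.9% of the 10190 shared sites of the genome. The median ratio was 0.737 at the loci and 0.689 over all sites, and 5 of the 13 lay below the latter. In tags 9 of the 13 had fewer in PiCs, against 86.2% of all shared sites. The ratios ran from 0.438 at Meg3 (interval 0.425 to 0.451) and 0.452 at Mest (0.408 to 0.499) to 0.958 at the second Igf2r site (0.835 to 1.10). The Meg3 site reaches far past its span, with 24.0% of the ESC island inside it, so its ratio is not that of the span alone. Sites wider in PiCs numbered 5 of 13 and narrower ones 8, against 39.4% and 55.3% of all shared sites. Among the wider were the second and the fourth Gnas sites, with ratios of 2.21 and 2.54. The third Gnas site and the second Igf2r site differed less, at 1.16 and 1.09.

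**Figure D4:**
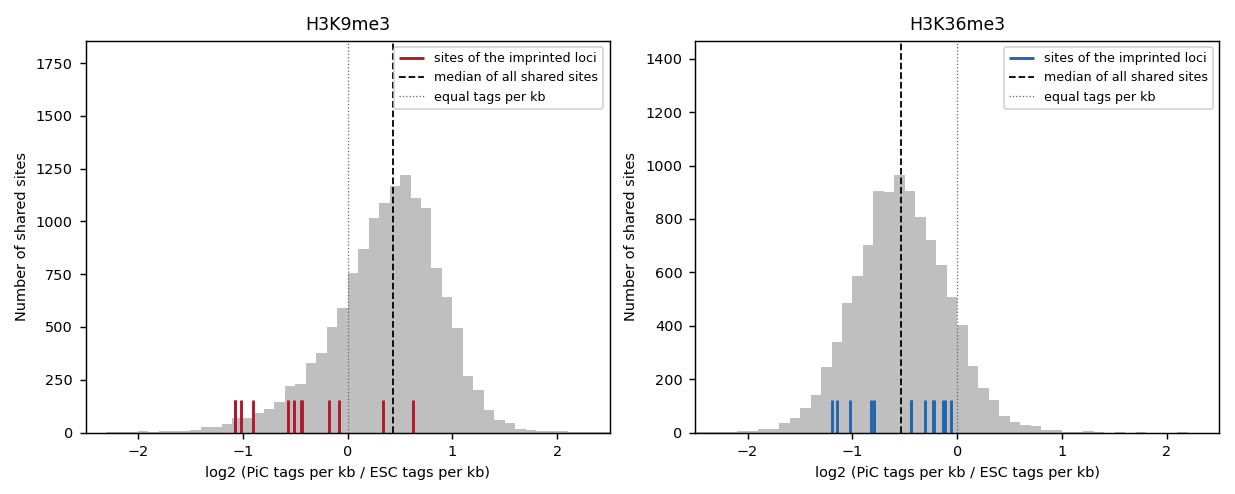
Distribution over all sites present in both groups of the ratio of PiC to ESC tags per kb, on a log2 axis, for H3K9me3 (left) and H3K36me3 (right). Grey bars count sites, coloured ticks are the sites of the imprinted loci, the dashed line is the median of all shared sites and the dotted line marks equal tags per kb, not scaled to depth. The H3K9me3 ticks lie mostly left of the median, with 11 of 12 below it, and the H3K36me3 ticks lie on both sides, with 5 of 13 below it.

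The H3K9me3 islands of the loci often lay close to H3K36me3. In ESCs 6 of 15 overlapped it and in PiCs 4 of 14, against 7.74% and 6.07% of the whole lists. A gap of under 5 kb, overlaps included, separated 8 of 15 islands in ESCs and 7 of 14 in PiCs from H3K36me3, where the shares of the lists were 10.7% and 8.03%. The spans hold genes by design and the lists do not, so these shares are set side by side as a description. The nearest other H3K9me3 island lay at a median distance from the leading islands of 76.1 kb in ESCs and 55.8 kb in PiCs, against 18.6 and 12.2 kb over all islands. Over all islands at the loci the median was 5 kb in ESCs (15 islands), shorter than that of the list, and 33.9 kb in PiCs (14 islands). Several loci held more than 1 island. Mest was the most isolated, with 260.4 kb in ESCs and 187 kb in PiCs, and the leading islands of Peg10 and Meg3 in ESCs and of Kcnq1ot1 and Gnas in PiCs had a neighbour less than 5 kb away.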

How the data were processed

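ChIP-seq libraries of H3K9me3 and H3K36me3 from ESCs and PiCs were grouped by their titles, with 1 library per group. Per the submitters' processing notes, SICER called the islands, on build mm9. Not given in the sources used here are its version and settings, the aligner, the handling of duplicates and the role of the input. Every deposited list gives position and a whole number per island, with no header. This number was read as the authors' tag count, unscaled, since it is the layout of SICER's island lists. Positions lie on a grid of 200 bp and are printed 1-based.

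The members, lists and tests were chosen with earlier results of these data known. The comparison of tags per kb and its background classes were added after the values had been seen. All 10 loci are named, and islands with the most tags at a locus, and H3K9me3 islands overlapping H3K36me3, are given with positions. Spans came with the list of loci, and no gene annotation of mm9 was used, so islands were not assigned to exons or promoters. The list of further imprinted genes planned for an mm9 annotation was not used.

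Overlap means 1 bp or more. Sites are overlapping islands of both groups joined. Ratios carry intervals from the binomial share of tags. Promoters came from RefSeq (GRCm38.p6). Python 3.11.15, numpy 2.4.6, pandas 2.3.3, scipy 1.17.1 and matplotlib 3.10.9 were used. On lists simulated from those of ESCs, the functions found all 200 planted sites of lower density in each mark. The planted sites kept the exact positions of ESC islands, with tags changed by fixed factors. This checks the code alone, without noise, shifted edges or several islands joined into a site. Alternatives were spans widened by 20 kb, joining over gaps of 2 kb, equal list lengths, the top 50% of islands by tags, and stricter overlaps.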

Additional observations from a re-analysis of the deposited data

How the results depend on the processing

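With 1 library per group no replicate could be left out. No paired analysis was possible because there is a single library per mark and condition. Of 70 values recomputed under other settings, 59 kept within 1.5 times (counts) or within their binomial interval (covered shares), and 11 did not. Spans widened by 20 kb on each side gave H3K9me3 coverage of 8.77% in ESCs and 8.63% in PiCs, and H3K36me3 coverage of 28.1% and 25.7%. The 50% of islands with the most tags gave H3K36me3 coverage of 25.9% and 28.2%, and 5 shared H3K36me3 islands in each group in place of 15 in ESCs and 17 in PiCs. Requiring 50% of both islands gave 9 in each. Lists of equal size gave a PiC H3K36me3 coverage of 32.8%. Under the 5 settings where it was counted (wider spans, the upper 50% by tags, joining over gaps of 2 kb, equal list lengths, and 50% of the island inside the span), H3K9me3 was found at all 10 loci, apart from 9 in PiCs with the 50% of islands with the most tags. Wider spans brought H3K36me3 to H19 and so to 9 loci in ESCs and 10 in PiCs, in place of 8 and 9. Overlap of the marks was found at 4 to 6 loci in ESCs and at 2 or 3 in PiCs, the lower numbers with at least 1 kb under both marks.

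Settings added later concerned the ratio of PiC to ESC tags. With tags in place of tags per kb the median was 0.882 for H3K9me3 and 0.579 for H3K36me3. For H3K36me3 it was 0.650 with 1 site per locus and 0.498 with the 50% of islands with the most tags, where 5 sites remained. In these settings the loci lay below all shared H3K36me3 sites, whose medians were 0.621 (tags), 0.689 (beside 1 site per locus) and 0.612 (upper 50%). They lay above them in the main setting (0.737 against 0.689) and with lists of equal size (0.737 against 0.677). For H3K9me3 the median at the loci stayed between 0.689 and 0.736 with 1 site per locus, the 50% of islands with the most tags, and lists of equal size.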
